A study of Mus musculus with 6 samples.

Results

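The Ndrg (N-myc downstream regulated gene) family of the mouse has 4 paralogs, Ndrg1, Ndrg2, Ndrg3 and Ndrg4, and all 4 were measured on the arrays, each by 1 probe set, among 35556 probe sets and 19938 genes in all. Members were taken by name, with the probe set of a gene chosen by the highest mean log2 value over all 6 mice. As each member has only 1 probe set that is paired with its symbol alone, this step left no choice. The family was taken up with the lower Ndrg4 value in transgenic mice already known, so the contrast between genotypes is given for Ndrg4 as a description with no test. RNA from the cardiac ventricles of each mouse, taken on postnatal day 17, was hybridised to its own Affymetrix Mouse Gene 1.0 ST array. There were 3 miR-499 transgenic mice and 3 wild-type littermates (WT). The transgenic mice belong to TG-17, a single line made in FVB/NCrl embryos with the mouse miR-499 region under the Myh6 promoter, which is active in heart muscle cells. The labels do not give sex, and with a single line the effects of the microRNA and of the place where the transgene inserted cannot be told apart.

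Ndrg proteins share an alpha/beta hydrolase fold but lack the catalytic residues of the active hydrolases of that fold. The family is named after Ndrg1, which is repressed by N-myc, is induced by hypoxia and cell stress, and is phosphorylated by the kinases Sgk1 and Gsk3. Ndrg1 is needed for the upkeep of myelin by Schwann cells. Ndrg2 is abundant in heart, skeletal muscle and brain astrocytes and is also a substrate of Akt and Sgk1. Ndrg3 protein is degraded after hydroxylation by the oxygen sensor Egln1 and is stabilized by lactate in hypoxia. Ndrg4 is expressed mainly in heart and brain, is required for cardiomyocyte growth in zebrafish, and lies in a region associated with the QT interval in humans.

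The mature microRNA strands are shown because their gene is the agent that differs between the groups. Their seeds, bases 2 to 8 and the part that pairs with target transcripts, are in capitals. Both come from RefSeq (GRCm38.p6).
mmu-miR-499-5p: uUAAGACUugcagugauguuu
mmu-miR-499-3p: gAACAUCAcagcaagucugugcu
The probe set of the miR-499 gene, Mir499, had log2 values of 5.48, 5.34 and 5.68 in the 3 WT mice and 9.31, 9.33 and 8.87 in the 3 TG-17 mice, so the arrays go with their labels. No seed match was looked for in the transcripts of the Ndrg genes.

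Start sites of 3 of the 4 members were found in the RefSeq promoter table, which gives for each start site 250 bases before and 50 after it. There were 3 windows for Ndrg2, 2 for Ndrg3 and 4 for Ndrg4. They were searched on both strands for the E-box bound by Myc proteins (CACGTG), for the core bound by hypoxia-inducible factors (ACGTG or GCGTG, the former overlapping the E-box) and for the site bound by Egr factors (GCGTGGGCG or GCGGGGGCG). Of the 9 windows, 1 held the E-box, against 7.15% of all 32851 windows, and 1 held the Egr site, against 3.47%. Both matches lay in the same Ndrg4 window, and the Ndrg2 and Ndrg3 windows held neither. The stretch with both is shown because Ndrg4 is the member whose level differed between the genotypes. It lies at chr8:95677700-95677768 (GRCm38.p6, plus strand), with the E-box and the Egr site, here read from the opposite strand, in capitals.
Ndrg4: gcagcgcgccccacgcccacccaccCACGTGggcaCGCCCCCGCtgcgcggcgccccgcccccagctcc
The hypoxia core was in 2 Ndrg2 windows, 1 Ndrg3 window and 2 Ndrg4 windows, against 43.8% of all windows. These are matches of letters, and no binding was measured.

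The deposited values are log2 values normalized between arrays with RMA. The genotypes were compared with limma on all 35556 probe sets, and a probe set was called changed at a log odds B above 0. By this rule 130 probe sets, or 0.366%, were called, in either direction. At the stricter adjusted p under 0.05 only 2 probe sets passed in limma, and none of the Ndrg genes, Ndrg4 included, was among them. Each adjusted p given below for a single gene was corrected by the Benjamini-Hochberg method for the whole array. Intervals of single genes are 95% intervals from the same fit. Markers of ventricular muscle were bright on all arrays. All 13 ventricular cardiomyocyte genes were measured, with mean log2 values of 7.10 to 14.35 and a median of 13.14, and the summed linear level of the list was 124351 to 126173 in WT and 124577 to 126142 in TG-17.

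Of the 4 Ndrg genes, 1 was called, and it was lower in TG-17, while 3 were not called. This count is a description, because the family was chosen with that gene in view. All 4 had a negative difference between TG-17 and WT in the values as deposited, in which the array medians were also lower in TG-17 (6.89 to 6.91) than in WT (6.93 to 6.95). With each array centred on its median the differences were -0.0021 for Ndrg1, 0.029 for Ndrg2, -0.069 for Ndrg3 and -0.50 for Ndrg4. The median difference over the 4 was -0.086 on the log2 scale, and over all probe sets it was -0.014. Only for Ndrg4 did the 3 TG-17 values all lie below the 3 WT values, a pattern found in 12.1% of all probe sets.

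**Figure D1:**
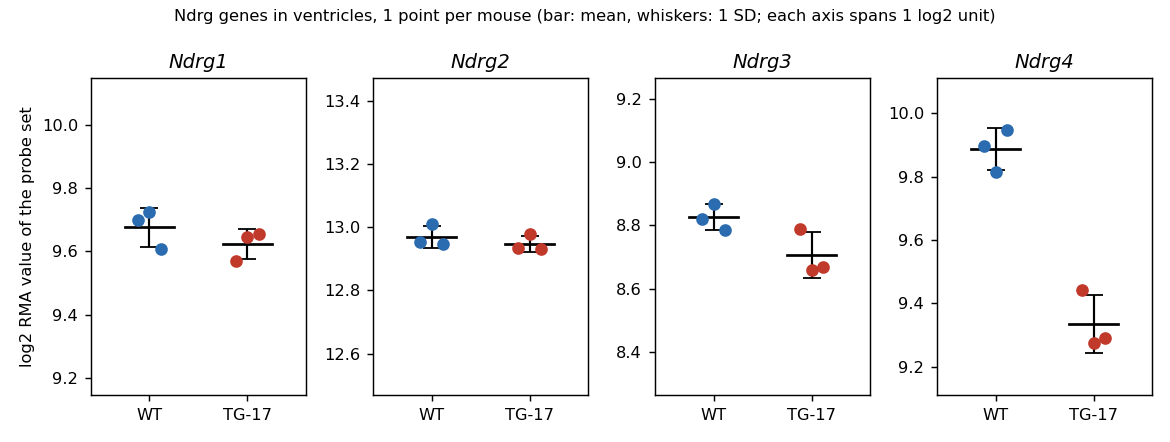
Log2 RMA values (vertical axes) of the 4 Ndrg genes at postnatal day 17, by genotype. Points stand for single mice, 3 in blue for WT and 3 in red for TG-17, with bars at the group means, whiskers of 1 SD, and axes that each span 1 log2 unit but start at a different level. The groups are apart for Ndrg4, at 9.27 to 9.44 in TG-17 and 9.81 to 9.95 in WT, and overlap for Ndrg1, Ndrg2 and Ndrg3.

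Ndrg4, the paralog of heart and brain, had log2 values of 9.90, 9.81 and 9.95 in the 3 WT mice and 9.44, 9.27 and 9.29 in the 3 TG-17 mice. The lowest WT value lay 0.37 log2 units above the highest TG-17 value, which was that of TG-17 mouse 1. The WT mean was 9.89 ± 0.067 and the TG-17 mean 9.33 ± 0.092 (SD, n = 3 each). The difference was -0.55 on the log2 scale (standard error 0.069, interval -0.72 to -0.38), or 1.47-fold lower in TG-17. Among the 19938 genes ordered from the most negative difference, Ndrg4 was at rank 21. Its B was 1.19 and was under 0 when WT mouse 1 or 3 or TG-17 mouse 2 or 3 was left out, at -0.41, -0.17, -0.51 and -0.43, while the difference was -0.60 to -0.52 with any mouse left out. In whole ventricles, fewer cells that express a gene and less of its RNA per cell cannot be told apart.

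Ndrg3, the paralog whose protein is stabilized by lactate, had log2 values of 8.82, 8.87 and 8.79 in WT and 8.79, 8.66 and 8.67 in TG-17. The TG-17 mice 2 and 3 lay below all WT mice, and TG-17 mouse 1 lay level with the lowest WT mouse, so that the groups just overlapped. The means were 8.82 ± 0.041 and 8.71 ± 0.073 (SD, n = 3 each). The difference of -0.12 (standard error 0.059) was not called (B -4.43, adjusted p = 0.389 from limma), and its interval of -0.26 to 0.024 covers a level in TG-17 from 0.833 to 1.02 times that of WT. Without TG-17 mouse 1 the difference was -0.16, with an unadjusted p of 0.0369 from limma, and was again not called.

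Ndrg1, the hypoxia- and stress-induced paralog, had log2 values of 9.70, 9.72 and 9.61 in WT and 9.57, 9.65 and 9.65 in TG-17. WT mouse 3 lay among the TG-17 mice, and the groups overlapped. The means were 9.68 ± 0.061 and 9.62 ± 0.047 (SD, n = 3 each). The difference of -0.053 (standard error 0.057) was not called (B -5.69, adjusted p = 0.677 from limma), and the interval was -0.19 to 0.086, or 0.875 to 1.06 times the WT level.

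Ndrg2, the paralog known to be abundant in heart muscle, had log2 values of 12.95, 13.01 and 12.95 in WT and 12.93, 12.98 and 12.93 in TG-17. All 6 mice lay within a narrow range and the groups overlapped. The means were 12.97 ± 0.035 and 12.95 ± 0.026 (SD, n = 3 each). The difference of -0.022 (standard error 0.049) was not called (B -6.02, adjusted p = 0.849 from limma). The interval of -0.14 to 0.097 covers 0.907 to 1.07 times the WT level, so a change of the size measured for Ndrg4 lies outside it, as it does for Ndrg1 and Ndrg3.

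**Figure D2:**
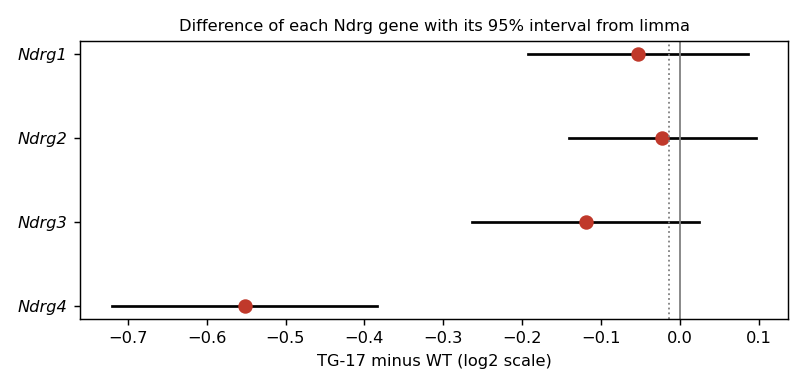
Difference between TG-17 and WT on the log2 scale (horizontal axis) for each Ndrg gene, with the point at the estimate from limma and the line over its 95% interval, from 3 mice per group. The solid grey line is 0 and the dotted grey line is the median of all probe sets, -0.014. The Ndrg4 interval runs from -0.72 to -0.38, and the intervals of Ndrg1, Ndrg2 and Ndrg3 include 0.

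The paralogs also differed in the brightness of their probe sets. Ndrg2 was the brightest, with a mean log2 value over all mice of 12.96, brighter than 99.7% of the genes. Ndrg1 and Ndrg4 followed at 9.65 and 9.61, and Ndrg3 was the dimmest at 8.77, though still brighter than 76.2% of the genes. Ndrg1 and Ndrg4 differed by only 0.038 in this mean, less than the SD within either genotype. Their order depended on the genotype, with Ndrg4 0.21 above Ndrg1 in WT and 0.29 below it in TG-17. Ndrg2 lay 3.31 above Ndrg1, and Ndrg4 lay 0.85 above Ndrg3, both far beyond the spread between mice. Different probes bind with different strength, so this is an order of probe signal and need not be the order of the transcripts. These means are of the kind used by the rule and were not tested.

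Mice of the same genotype differed little in their Ndrg levels. The SD within genotypes was 0.031 for Ndrg2, 0.055 for Ndrg1, 0.060 for Ndrg3 and 0.080 for Ndrg4, all below the median of 0.10 over all probe sets. Only 4.02% of probe sets had a smaller SD than Ndrg2, and 36.0% had a smaller SD than Ndrg4. Even Ndrg3, the dimmest member, was brighter than 78.5% of probe sets, and the SD was not compared at equal brightness.

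To set the change of Ndrg4 beside those of its paralogs, the log2 difference between members was taken within each array, which removes what all probe sets of an array share. Relative to Ndrg1, Ndrg4 was at 0.20, 0.092 and 0.34 in WT and at -0.13, -0.37 and -0.36 in TG-17, a change of -0.50 (standard error 0.11). Relative to Ndrg2 it was at -3.05, -3.19 and -3.0 in WT and at -3.49, -3.70 and -3.64 in TG-17, a change of -0.53 (standard error 0.085). Relative to Ndrg3 it was at 1.08, 0.95 and 1.16 in WT and at 0.65, 0.61 and 0.62 in TG-17, a change of -0.43 (standard error 0.063). For each of the 3 paralogs all TG-17 mice lay below all WT mice, and no test was made, since Ndrg4 was chosen for its difference.

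**Figure D3:**
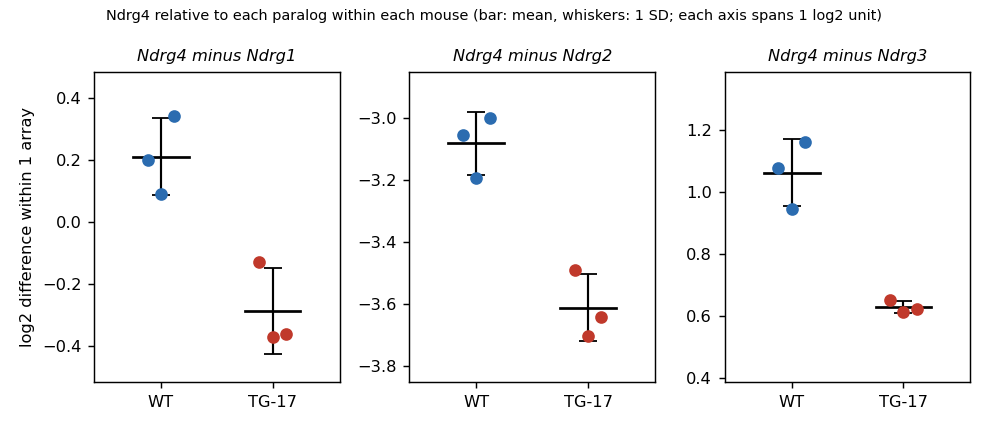
Log2 value of Ndrg4 minus that of Ndrg1, Ndrg2 or Ndrg3 in the same array (vertical axes) by genotype. Points stand for single mice, 3 in blue for WT and 3 in red for TG-17, with bars at the means, whiskers of 1 SD, and axes that each span 1 log2 unit. No TG-17 point reaches a WT point in any panel, and the smallest change, against Ndrg3, is -0.43.

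Among the other 3 paralogs, 3 pairs were compared in the same way. Ndrg3 relative to Ndrg2 changed by -0.097 (interval -0.24 to 0.048) between the genotypes, Ndrg3 relative to Ndrg1 by -0.067 (interval -0.26 to 0.13), and Ndrg2 relative to Ndrg1 by 0.031 (interval -0.068 to 0.13). A two-sided exact permutation test over the 6 mice gave p = 0.2, 0.4 and 0.5, each 0.5 after adjustment over the 3 pairs. With 3 mice against 3 such a test cannot go below 0.1.

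The genes beside each member were examined to see whether a change extended along the chromosome. Of the 16 nearest genes with a probe set, 2 on each side of each member in RefSeq, none was called at B above 0, and 1 was higher and 1 lower with an unadjusted p under 0.05 from limma, a p reached by 6.97% of all probe sets with a higher and 8.50% with a lower level. Beside Ndrg4, the DNA replication gene Gins3 and the protease gene Prss54 on one side had differences of 0.010 (standard error 0.082) and 0.070 (standard error 0.15). On the other side the methyltransferase gene Setd6 had a difference of -0.069 (standard error 0.048) and Cnot1, the scaffold of the deadenylase complex that shortens poly(A) tails, one of 0.039 (standard error 0.055). The 2 at an unadjusted p under 0.05 were St3gal1 beside Ndrg1 (difference 0.17, standard error 0.059) and Tppp2 beside Ndrg2 (difference -0.24, standard error 0.085). Ccn4, Sla and Zfat beside Ndrg1, Slc39a2, Mettl17 and Rnase13 beside Ndrg2, and Sla2, Rab5if, Dsn1 and Soga1 beside Ndrg3 had larger p values. Over all 16 neighbours the differences ran from -0.31 to 0.17, all smaller in size than that of Ndrg4.

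Of the 10844 other genes with a mean log2 value of at least 7, the 6 whose profile over the 6 mice lay nearest to that of Ndrg4 were Gpt, Csrp2, Wif1, Dbt, Tspan3 and Ppil1. Each profile was centred on its own mean, and the root mean square difference from Ndrg4 was 0.078 to 0.097 log2 units, against a median of 0.30. Gpt encodes the cytosolic alanine aminotransferase and had a difference of -0.40 (standard error 0.067). Csrp2, a LIM protein of smooth muscle, had one of -0.45 (standard error 0.049), and Wif1, a secreted inhibitor of Wnt signaling, one of -0.59 (standard error 0.058). Dbt, a subunit of the dehydrogenase that breaks down branched-chain ketoacids, had one of -0.50 (standard error 0.048). The tetraspanin gene Tspan3 had one of -0.39 (standard error 0.047), and Ppil1, a spliceosomal prolyl isomerase, one of -0.37 (standard error 0.077). Of the 6 genes 4 were called at B above 0, Gpt and Ppil1 not. Ndrg3 was at 0.23, Ndrg1 at 0.27 and Ndrg2 at 0.28, with 9.53%, 31.3% and 35.8% of the genes nearer to Ndrg4. As the likeness was measured over the same 6 mice, genes with a fall of similar size come out near by construction.

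**Figure D4:**
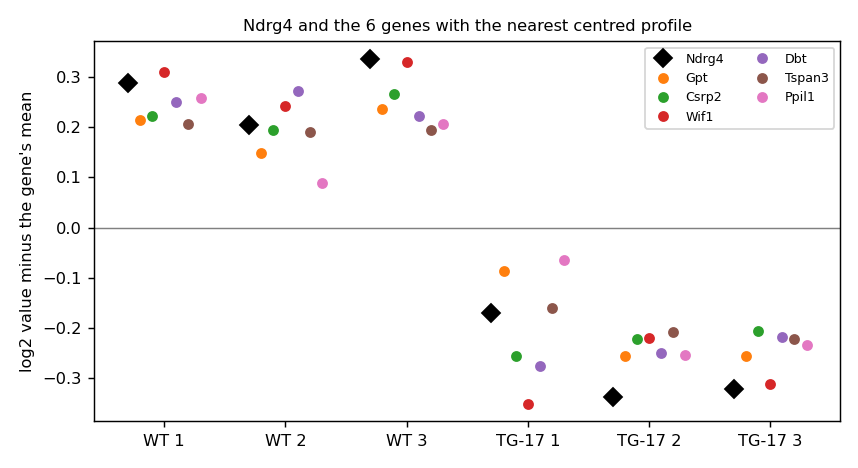
Log2 value minus the mean of the gene over the 6 mice (vertical axis) for Ndrg4 (black diamonds) and the 6 genes nearest to it (coloured circles), by mouse. The 7 genes lie above 0 in each WT mouse and below 0 in each TG-17 mouse.

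Genes that act around the Ndrg proteins or share their fold were taken as 6 lists holding 90 measured genes. None of these was called at B above 0, a call made for only 0.366% of all probe sets. At an unadjusted p under 0.05 from limma, 10 of the 90 had a higher and 5 a lower level in TG-17. These counts stand beside the same shares of 6.97% and 8.50% over all probe sets. In the Myc and Max network, which holds the N-myc that gave the family its name, 2 of 14 genes were higher and 1 was lower at that p. They were Mlxip (difference 0.19, standard error 0.050), Myc (0.40, standard error 0.13) and Mlx (-0.16, standard error 0.060). Mycn itself had a difference of -0.13 (standard error 0.089). The median of this list was 0.047.

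The kinase list holds Sgk1, Gsk3b and Akt genes, whose products phosphorylate Ndrg proteins, with their regulators. Of 18 measured genes 3 were higher and none was lower with an unadjusted limma p under 0.05, with a median difference of 0.016. Sgk1 had log2 values of 8.63, 8.89 and 8.98 in WT and 9.25, 9.12 and 9.24 in TG-17. Its difference was 0.37 (standard error 0.10, adjusted p = 0.244 from limma). Gsk3b had a difference of 0.16 (standard error 0.053), and Nedd4l, a ubiquitin ligase restrained by Sgk1, one of 0.20 (standard error 0.051). The arrays measure transcripts and give no phosphorylation of Ndrg proteins.

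Among 11 oxygen sensing genes, 2 were lower and none was higher at an unadjusted p under 0.05 from limma, with a median of 0.050. These were Cited2, which restrains hypoxia-inducible factors (difference -0.39, standard error 0.081), and Vhl, which marks them for degradation (difference -0.26, standard error 0.071). The list's next gene by p was Arnt, the partner of Hif1a, with a difference of 0.11 (standard error 0.051). Egln1, the oxygen sensor that acts on Ndrg3, had a difference of 0.070 (standard error 0.052) and Hif1a one of 0.13 (standard error 0.068). Of 20 hypoxia-induced genes, 4 were higher and 1 was lower at that p, with a median of 0.055. The angiogenic factor gene Vegfa had a difference of 0.30 (standard error 0.069), the collagen prolyl hydroxylase gene P4ha1 one of 0.35 (standard error 0.12) and the glucose transporter gene Slc2a1 one of -0.21 (standard error 0.066). Ndrg1, itself induced by hypoxia, had the difference of -0.053 given above.

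Of 9 measured Popeye and recycling vesicle genes, 1 was higher at an unadjusted p under 0.05 from limma, with a median of 0.032. It was the Popeye gene Popdc3 (difference 0.22, standard error 0.058). Bves, another Popeye gene and a known binding partner of Ndrg4, had a difference of 0.039 (standard error 0.061) and Popdc2 one of 0.025 (standard error 0.048). Vangl2, a planar polarity gene, had one of -0.20 (standard error 0.090) and the vesicle fusion gene Vamp3 one of 0.083 (standard error 0.051). Of 19 Abhd genes, which encode other proteins with the alpha/beta hydrolase fold, 1 was lower at that p, with a median of -0.030. This was Abhd17a, a depalmitoylase gene (difference -0.16, standard error 0.046). The related Abhd17c and Abhd13 had differences of -0.13 (standard error 0.057) and -0.16 (standard error 0.082).

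**Figure D5:**
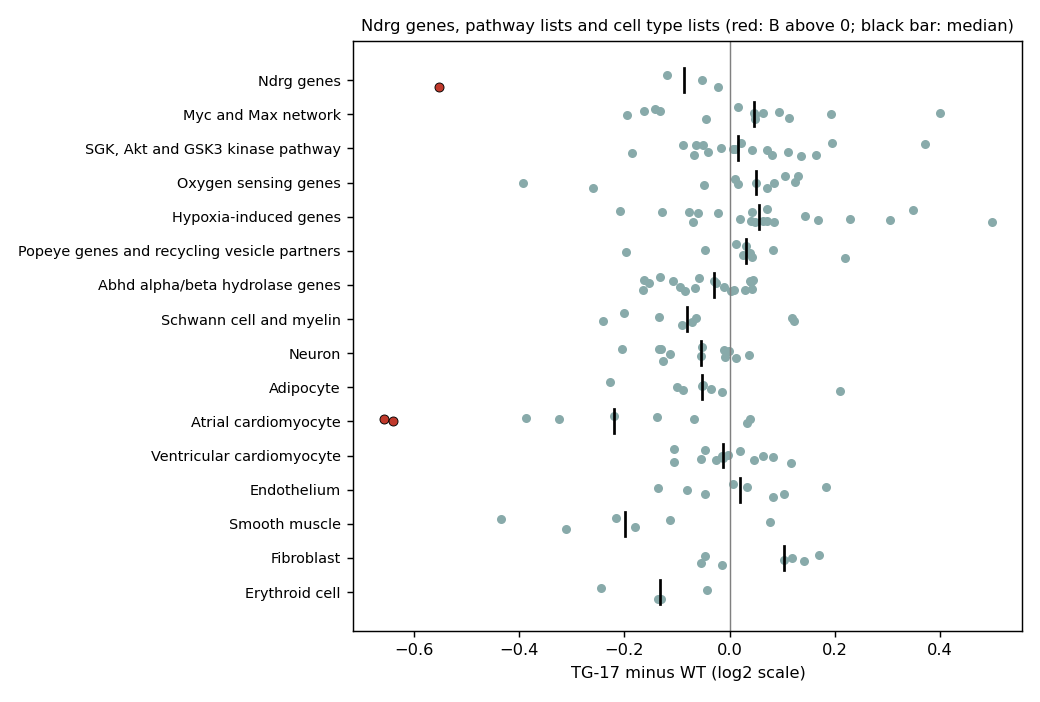
Difference between TG-17 and WT on the log2 scale (horizontal axis) for the 4 Ndrg genes, 6 lists of genes that act around them or share their fold, and 9 lists of cell type markers. Each point is 1 gene, red points passed B above 0, and black bars are medians. Ndrg4 at -0.55 is the lowest point outside the atrial list, in which Myl4 and Myl7 passed.

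Lists of cell type markers were read beside the lower Ndrg4 level. Over the 9 lists 75 genes were measured, and 2 were called at B above 0, against 0.366% of all probe sets. At an unadjusted p under 0.05 from limma 12 of the 75 were lower and 1 was higher. Over all probe sets these shares were 8.50% and 6.97%. Of 9 measured atrial cardiomyocyte genes, 2 were lower at B above 0, the light chains Myl7 (difference -0.64, standard error 0.097) and Myl4 (-0.66, standard error 0.10). At an unadjusted p under 0.05 from limma 5 of the 9 were lower, Dkk3 among them (-0.39, standard error 0.072), and the median was -0.22. Neither light chain passed with arrays centred on their medians or without WT mouse 1 or 3 or any TG-17 mouse. The summed linear level of this list, most of it from Myh6, which the adult ventricle also expresses, was 20512 to 21109 in WT and 19971 to 20588 in TG-17, and the groups overlapped. None of 6 smooth muscle genes was called, 3 were lower at that p, Myh11 (-0.31, standard error 0.070), Acta2 (-0.22, standard error 0.073) and Cnn1 (-0.43, standard error 0.16), and the summed level was 7649 to 8361 in WT and 6810 to 7266 in TG-17. The part of atrial or smooth muscle tissue in the Ndrg4 difference was not tested.

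Ndrg4 is also expressed in neurons and Ndrg1 in Schwann cells. None of the 12 measured neuron genes was called, and Stmn2, which acts on microtubules of growing axons, was lower with an unadjusted limma p under 0.05 (difference -0.20, standard error 0.053). Chga and Dbh, of secretory granules and of noradrenaline synthesis, had differences of -0.13 (standard error 0.067) and -0.11 (standard error 0.069). Neuron genes were dim, 10 of the 12 below the median gene, with a median difference of -0.054. Their summed linear level was 1195 to 1228 in WT and 1102 to 1163 in TG-17, which did not overlap. This sum is of values as deposited, in which the array medians were lower in TG-17 too (6.89 to 6.91 against 6.93 to 6.95). Of 8 measured Schwann cell and myelin genes none was called and 2 were lower at that p, the transcription factor gene Sox10 (difference -0.20, standard error 0.067) and S100b (-0.24, standard error 0.092). Gfra3 had a difference of 0.12 (standard error 0.054). Their summed level was 927 to 972 in WT and 902 to 924 in TG-17. The part of nerve tissue in the Ndrg4 difference was not tested.

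None of the genes in the other 5 cell type lists was called. At an unadjusted p under 0.05 from limma, 1 of 8 adipocyte genes was lower (Adipoq, difference -0.23, standard error 0.085) and 1 of 8 endothelial genes was higher (Eng, 0.18, standard error 0.063), with medians of -0.052 and 0.020. None of 13 ventricular cardiomyocyte, 7 fibroblast or 4 measured erythroid genes passed that p, with medians of -0.013, 0.10 and -0.13. The summed linear level of the fibroblast list was 25316 to 25866 in WT and 25870 to 27033 in TG-17, so the groups nearly touched. Such sums were also apart for the hypoxia-induced genes (27722 to 28462 in WT, 29595 to 29894 in TG-17). The same held for the kinase list (17444 to 17767 in WT, 17780 to 18145 in TG-17). It held for the Popeye and recycling vesicle list too (9910 to 10128 in WT, 10166 to 10347 in TG-17). The Abhd sum was apart and lower in TG-17 (8119 to 8416 in WT, 7909 to 8039 in TG-17). Sums overlapped for the Myc and Max network and for the oxygen sensing genes. How often sums of other lists are apart was not tested. The part of fibroblasts in the Ndrg4 difference was not tested. The sums of the adipocyte, endothelial and erythroid lists overlapped between the genotypes. In the ventricular cardiomyocyte list the smallest p belonged to the light chain gene Myl2 (difference 0.12, standard error 0.050). In the fibroblast list it belonged to the matrix proteoglycan gene Lum (0.17, standard error 0.074). In the erythroid list it belonged to the red cell membrane gene Epb42 (-0.24, standard error 0.12).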

How the data were processed

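Ventricle RNA of 3 TG-17 and 3 WT mice was hybridised by the authors to Mouse Gene 1.0 ST arrays. The deposited values are log2 expression values made by the authors, and the submitters' processing notes name RMA (version not given in the sources used here). All 35556 probe sets were used as deposited, with 0 columns left out. RMA normalizes between arrays, so a shift shared by most transcripts may be lost, although the deposited array medians still differed (6.93 to 6.95 in WT, 6.89 to 6.91 in TG-17). Groups came from the sample titles, and the line from the paper. Probe sets were named through the platform annotation, updated by Entrez identifier through RefSeq (21789 with 1 symbol). For lists and neighbours, each gene was represented by its brightest probe set.

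TG-17 and WT were compared with lmFit and eBayes of limma 3.58.1 (R 4.3.3, assumed share of changed probe sets 0.01) across all probe sets, without a filter. The script was tested on simulated data. Precision is limited by the number of arrays, which hold no counts. Named were the members, Mir499, list genes at B above 0 or with the smallest p, 2 neighbours per side and the 6 nearest profiles. Mycn, Egln1, Hif1a, Bves, Popdc2 and Myh6 were named outside this rule, after their values were seen. The members and lists were chosen with earlier results of these data known. The lists were the Myc and Max network, the kinase pathway, oxygen sensing, hypoxia-induced, Popeye and vesicle, and Abhd genes, and 9 sets of cell type markers. The fit was repeated without dim or without unannotated probe sets, after centring arrays on their medians or another quantile step, with a trended or robust variance prior or none, with weighted arrays, with a block for the replicate number, and without each mouse in turn.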

Additional observations from a re-analysis of the deposited data

How the results depend on the processing

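The difference of Ndrg4 was negative under all 16 alternatives, from -0.61 with a second quantile normalization to -0.50 with each array centred on its median. As Ndrg4 was chosen for its fall, this is a description. Its B was not above 0 with the replicate number as a block, where the difference was again -0.55 and 0 of the 4 members were called. The deviations of same-numbered mice had a Pearson's r over probe sets of 0.024, -0.00044 and 0.057. With 3 mice per group this cannot settle whether the numbers pair the mice, and the labels do not say. With 1 mouse left out, the Ndrg4 difference was -0.60 to -0.52 and the number of members called was 0 to 1. Each member has 1 probe set, so taking the mean over the probe sets of a gene, 1 of the 16, changes nothing by construction. Ndrg1, Ndrg2 and Ndrg3 were called under none of the 16 alternatives, and only the sign of Ndrg2 turned. The number of probe sets called over the whole table was 69 with the block, 287 with an intensity trend and 29 to 112 with 1 mouse left out (56 without WT mouse 1, 37 without WT mouse 2, 29 and 51 without TG-17 mouse 2 and 3). No list of genes that act around the Ndrg proteins or share their fold gained a call under the scaling and leave-one-out alternatives. Myl4 and Myl7 lost theirs with median centring and without WT replicate 1 or 3 or any TG-17 replicate.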
